A study of Homo sapiens with 6 samples.

Results

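The genes described are 47 genes of DNA repair and of the DNA damage checkpoint. They were chosen by name, with earlier results of these data known. All probe sets whose platform symbol was one of these names were taken, and 43 of the 47 genes were measured, by 115 probe sets. These are 43 of 18239 genes and 115 of 49293 probe sets in all. BRCA2, RBBP8, FANCA and FANCD2 were not analysed here. By class, 13 measured genes act in homologous recombination and the trimming of broken ends, 8 in the Fanconi pathway, 5 in mismatch repair, 5 in end joining and 10 in the checkpoint, and PARP1 and UNG form a further class of base excision and strand break repair.

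The cells were MV4;11, an established human leukemia line described in the labels as MLL leukemia, so every array carries that background and comes from 1 line. One group received 4 µM MI-389, an inhibitor of the binding of menin to MLL, for 6 days, and the other received DMSO alone. The solvent was at 0.25% in both groups, and the medium was changed on day 3 with compound or DMSO given anew. Each group held 3 Affymetrix arrays, called biological replicates in the labels with no word on how the cultures were separated, so each p-value rests on the spread among these particular arrays, part of which may be technical.

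Cells repair breaks across both DNA strands either by copying an intact sister strand, which is homologous recombination, or by rejoining the ends directly, which is end joining. The Fanconi proteins remove links between the strands, mismatch repair corrects errors of replication, and base excision removes single damaged or misplaced bases. The kinases ATM and ATR sense damage and stalled replication and act through CHEK2 and CHEK1 to halt the cell cycle. Many genes of these pathways are transcribed mainly in S phase and G2, and dividing leukemia cells therefore express most of them.

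With MI-389, 22 of the 43 measured genes rose and 8 fell in the values as deposited, against 6 higher and 17 lower with every array shifted to a common level of its spike-in controls (spike-in centring). All values are log2 levels, a change is the MI-389 mean minus the DMSO mean, and "rose" and "fell" mean a limma adjusted p under 0.05 over all genes. Among all 18239 genes 34.1% passed as deposited, 18.4% higher and 15.7% lower. Of the same 18239 genes, 1397 were higher and 11056 lower with spike-in centring. In the values as deposited the median change was 0.21 over the 43 genes and 0.018 over all genes. Folds were small: the changes ran from -0.98 for MRE11 to 0.83 for UNG, and 0 of the 30 genes that passed changed by 2-fold. Of the 43 genes 8 passed and changed by at least 0.5 on the log2 scale, where 12.5% of all genes did. Counted over the genes that passed, these were 8 of 30 members and 2284 of 6214 genes in all. The median fold was 1.28 among the genes that rose and 1.30 among those that fell.

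The arrays of the treatments did not overlap for 33 of the 43 genes, including all 30 that passed, where 45.3% of all genes showed no overlap. The members were brighter than most genes, with a median log2 level of 7.36 against 5.24. The highest level of the nonspecific control probe sets was 7.87, and it was 5.49 with the one of highest GC content left out. The level of 5.49 serves as a guide to background because no detection calls were in the table. Among genes with a group mean at or above 5.49, 27 of 38 members passed, 19 higher and 8 lower, beside 58.4% of 8928 genes, 30.7% higher and 27.7% lower. In these genes the arrays did not overlap for 30 of 38 members and for 6291 of 8928 genes in all. A call with a change of at least 0.5 was seen in 7 of 38 members and in 2044 of 8928 genes. XRCC2, XRCC3, BRIP1, FANCM and PMS2 had both group means under 5.49 on the probe sets that name 1 gene, and the folds of such dim genes are compressed.

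The hybridisation spike-ins, transcripts added in known amounts, were 0.25 higher on the MI-389 arrays. Centring the arrays on them lowers the change of every gene by that amount and moves the median of all genes from 0.018 to -0.23. The spike-ins are controls of the hybridisation step, so neither scale measures the amount of RNA per cell. BRCA1, FANCB, FANCM, EXO1, TOPBP1 and UNG passed as higher on both scales, all 8 genes that fell passed as lower on both, and 0 genes that rose turned to a called fall. The shift makes every fall larger, and it takes the smallest called rise, 0.21 for RAD9A, to -0.042. The absence of lost falls and of reversed calls therefore follows from the shift. With the centring, 9 further genes passed as lower. In bulk samples, fewer cells expressing a gene and less RNA per cell cannot be told apart.

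**Figure D1:**
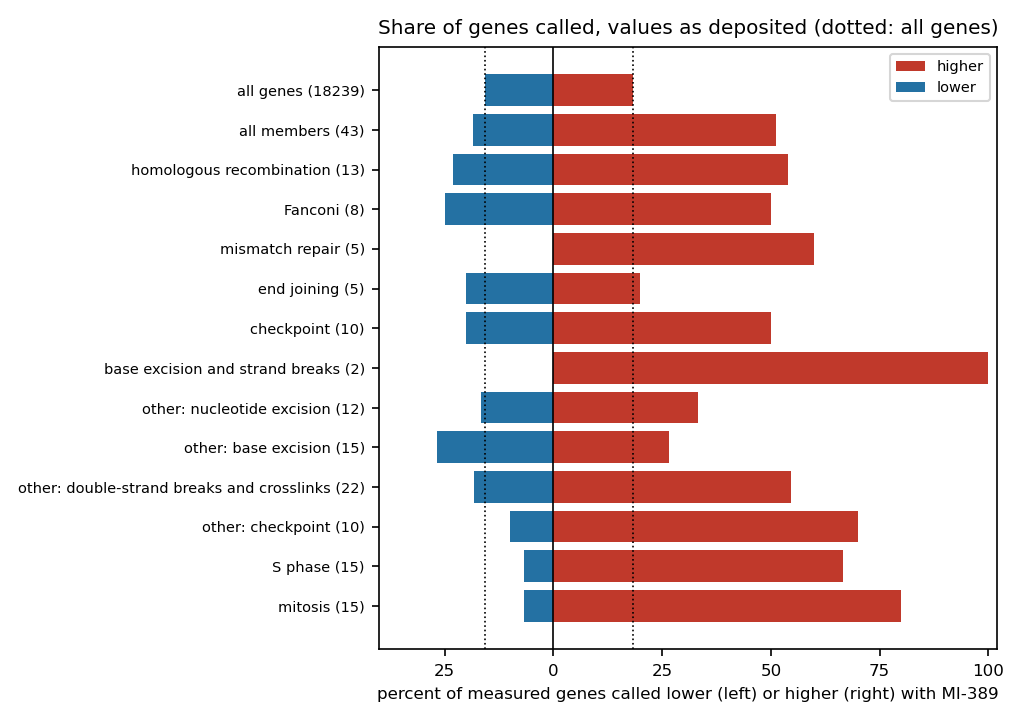
The bars give the percent of measured genes of each list called higher (right) or lower (left) with MI-389 in the values as deposited, with the number of measured genes in brackets and dotted lines at the shares of all 18239 genes. The members stood at 51.2% higher and 18.6% lower, against 18.4% and 15.7% of all genes. With spike-in centring, which is not drawn, 6 of 43 members were higher and 17 lower, beside 1397 and 11056 of all 18239 genes.

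Promoter sequence was compared because E2F factors drive many S phase genes, including several of these. The RefSeq promoter table (GRCh38.p14) held windows for 41 of the 47 genes, each from 250 bases before to 50 bases after the gene's start. An E2F site was taken as TTTCCCGC, TTTCGCGC, TTTGCCGC or TTTGGCGC on either strand. A match was found in 10 of the 41 windows (24.4%), against 3.33% of the 27305 promoters of that length. By outcome, it was found in 4 of 19 genes that rose, 0 of 7 that fell, 4 of 11 that did not pass and 2 of 4 not analysed. CCAAT, on either strand, was found in 20 of 41 windows (48.8%) and in 35.7% of all promoters. These were 10 of 19 genes that rose, 3 of 7 that fell, 6 of 11 that did not pass and 1 of 4 not analysed. The letters TTTGAA, the core of the cell cycle homology region, were found in 3 of 41 windows (7.32%), against 15.4% of all promoters. Their split was 2 of 19 genes that rose, 0 of 7 that fell, 1 of 11 that did not pass and 0 of 4 not analysed. A match is a description of the letters and not a site of binding, and the windows of RAD54B, NBN, FANCI, XRCC5, PRKDC and HUS1 were not used here.

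The stretches below are shown for the 4 genes that rose with an E2F match, for MSH3, which did not pass and has a pair of matches that overlap by some bases on opposite strands, and for the genes with the highest and lowest change, UNG and MRE11. They run 5′ to 3′ on the strand of the gene, with the E2F match in capitals in the first 5 and CCAAT or its reverse complement in capitals in UNG and MRE11. The positions are TOPBP1 chr3:133661932-133661991 (minus strand), EXO1 chr1:241848159-241848218 (plus), MSH6 chr2:47783100-47783159 (plus), XRCC2 chr7:152676112-152676171 (minus), MSH3 chr5:80654522-80654581 (plus), UNG chr12:109097570-109097626 (plus) and MRE11 chr11:94493891-94493996 (minus).
TOPBP1: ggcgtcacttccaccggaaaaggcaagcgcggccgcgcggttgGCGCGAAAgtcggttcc
EXO1: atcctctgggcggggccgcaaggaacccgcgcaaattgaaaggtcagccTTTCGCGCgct
MSH6: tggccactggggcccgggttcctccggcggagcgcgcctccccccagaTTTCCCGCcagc
XRCC2: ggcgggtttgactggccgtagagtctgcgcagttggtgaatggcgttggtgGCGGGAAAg
MSH3: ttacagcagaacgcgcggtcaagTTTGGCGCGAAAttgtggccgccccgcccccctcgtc
UNG: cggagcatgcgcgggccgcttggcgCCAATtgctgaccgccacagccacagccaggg
MRE11: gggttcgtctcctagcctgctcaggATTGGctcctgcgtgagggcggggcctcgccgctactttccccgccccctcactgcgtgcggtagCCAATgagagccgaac

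Of the 13 measured genes of homologous recombination 7 rose and 3 fell, with a median change of 0.24, and with spike-in centring 1 was higher and 4 lower. The 3 that fell are the subunits of the MRN complex, which binds a broken end first, holds it and starts its trimming, and their probe sets differed among themselves as described below.

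BRCA1, the scaffold of the complex that commits a break to recombination, had log2 levels of 7.87, 7.91 and 7.88 with DMSO and 8.40, 8.36 and 8.51 with MI-389. The groups lay apart by many times their spread, and the gene rose by 0.54 (SE 0.06, limma adjusted p = 5.22e-05), or 1.45-fold. Of its 5 probe sets, 3 were called higher and the other two had both groups under 5.49. Averaged over all 5, its change was 0.34.

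BARD1, the partner that forms the ubiquitin ligase with BRCA1, rose by 0.29, and the helicase BRIP1, which also binds BRCA1, rose by 0.28 at group levels of 3.83 and 4.11, both under background. BLM, the helicase that dissolves crossed strands, rose by 0.37 from 8.31 ± 0.06 to 8.68 ± 0.04 (mean ± SD, n = 3 each). The motor proteins RAD54B and RAD54L, which help a strand invade the intact sister, rose by 0.35 and 0.24. RAD54B has a second probe set, under background, that changed by -0.13, and the mean of both changed by 0.11 (adjusted p = 0.187). BRIP1 also stopped passing with its probe sets averaged (0.15, adjusted p = 0.055). XRCC2, which assists the loading of the recombinase, rose by 0.33 between levels of 5.13 and 5.47. The calls of RAD54L, XRCC2 and BRIP1 each depended on single arrays: the limma adjusted p reached 0.134, 0.0654 and 0.0649 with DMSO replicate 1, DMSO replicate 2 and DMSO replicate 1 left out, in that order. RAD54L was also lost, at adjusted p of 0.0648 to 0.105, without DMSO replicate 3, MI-389 replicate 1 or MI-389 replicate 2.

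RAD51C, a recombinase paralog that acts with XRCC3, did not pass and stood at 8.11, 8.06 and 8.06 with DMSO and 8.11, 8.14 and 8.22 with MI-389. These arrays overlap at their edge, and the change of 0.08 had a 95% interval of -0.04 to 0.21. PALB2, the link between BRCA1 and BRCA2, changed by 0.13 (adjusted p = 0.104), and XRCC3, under background in both groups, by 0.0046 (adjusted p = 0.966).

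MRE11, the nuclease of the MRN complex, had levels of 8.98, 8.98 and 8.91 with DMSO and 7.90, 8.03 and 7.98 with MI-389. Every treated array was far below every control array, and the fall of 0.98 (SE 0.06, adjusted p = 6.16e-07), or 1.98-fold, was rank 341 from the lowest of 18239 genes. Its 5 probe sets did not move alike. Besides the brightest, 2 under background in both groups were called lower, while the next brightest, at 7.38 with DMSO and the only other one above background, changed by -0.16 (probe set adjusted p = 0.133). The change of the gene was -0.57 with the mean of the probe sets above background and -0.41 with the mean of all 5.

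NBN, the subunit that recruits ATM to the break, had its smaller changes in the brightest probe set and 1 other. The brightest probe set read 9.85, 9.82 and 9.65 with DMSO and 9.61, 9.59 and 9.55 with MI-389, a change of -0.19 (SE 0.07, adjusted p = 0.0475) that stopped passing without any of 5 of the 6 arrays, DMSO replicate 3 being the exception (adjusted p of 0.0732 to 0.164). Of its other probe sets, 3 fell by more: 8.44, 8.27 and 8.25 against 7.41, 7.58 and 7.49 in the first, 7.89, 8.08 and 8.04 against 7.06, 7.10 and 7.10 in the second, and a change of -0.56 in the third. The first pair changed by -0.83 and -0.92 (limma over all probe sets, adjusted p = 1.27e-05 and 2.96e-06), and the mean of all 5 probe sets by -0.53 (adjusted p = 1.23e-05). All 5 were above background and had a negative change.

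RAD50, the coiled arm of the complex, cannot be given 1 direction. The brightest probe set read 8.10, 8.15 and 7.98 with DMSO and 7.86, 7.82 and 7.66 with MI-389, a fall of 0.29 (SE 0.07, adjusted p = 0.00968). A second read 7.56, 7.50 and 7.52 against 7.78, 7.72 and 7.83, a rise of 0.25 (adjusted p = 0.00789 over all probe sets). In both probe sets the groups did not overlap, in opposite directions, and the mean of the 3 probe sets changed by 0.023 (adjusted p = 0.756).

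**Figure D2:**
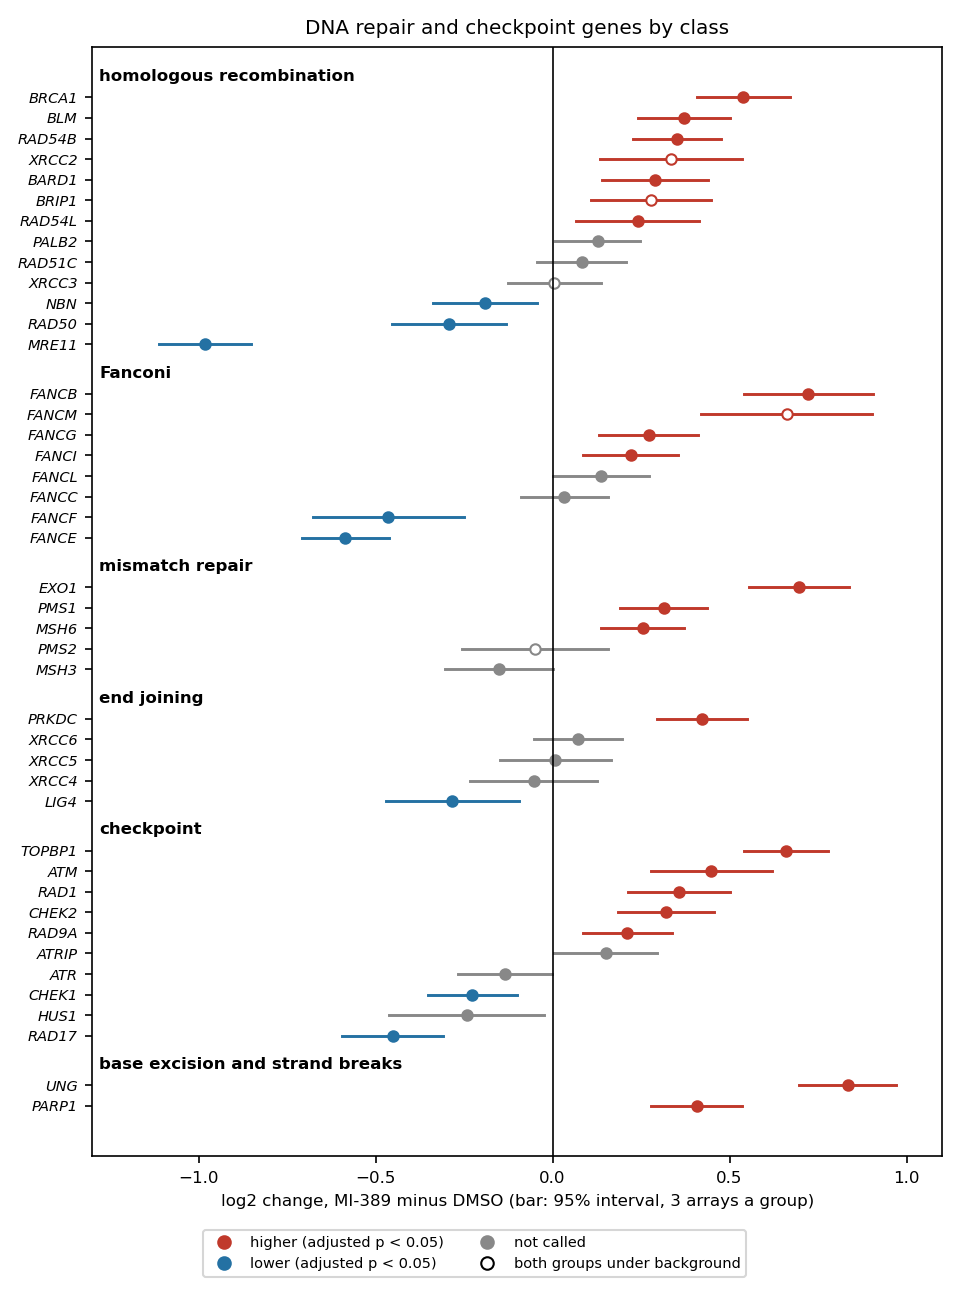
Each point is the log2 change of 1 gene, MI-389 minus DMSO, on the horizontal axis with its unadjusted 95% interval (3 arrays a group), ordered within class, with filled points for genes above background in at least 1 group. Within each class of more than 2 genes, except mismatch repair, called genes lie on both sides of 0. Over all classes the changes run from -0.98 for MRE11 to 0.83 for UNG. With spike-in centring every point moves left by 0.25.

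The Fanconi genes also moved both ways: 4 of 8 rose and 2 fell, with a median change of 0.18, against 2 higher and 3 lower with spike-in centring. FANCB, part of the catalytic module of the core complex that ubiquitinates FANCD2 and FANCI, read 5.29, 5.30 and 5.31 with DMSO and 5.84, 6.04 and 6.18 with MI-389. All 3 controls lay just under the background guide and all 3 treated arrays above it, so that it was at least 1.45-fold higher (change 0.72, SE 0.08, adjusted p = 6.81e-05). FANCM, the motor protein that anchors the core complex on DNA, read 4.71, 4.44 and 4.31 against 5.02, 5.10 and 5.32. It rose by 0.66 (SE 0.11, adjusted p = 8.04e-04) with every array under 5.49, and 1 of its 3 probe sets was called. FANCG, a core subunit, rose by 0.27.

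FANCI, the partner of FANCD2 in the clamp that the core complex modifies, rose by 0.22 (adjusted p = 0.0169). A second probe set of similar brightness rose by 0.53. The gene call was lost without DMSO replicate 2, DMSO replicate 3 or MI-389 replicate 2 (adjusted p of 0.0558 to 0.0604).

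FANCE, which bridges the core complex to FANCD2, read 6.70, 6.73 and 6.75 with DMSO and 6.10, 6.12 and 6.21 with MI-389. The groups were tight and lay apart, and it fell by 0.59 (SE 0.06, adjusted p = 1.89e-05), a level 33.3% lower on the linear scale. FANCF, the adaptor that holds FANCE in the core complex, fell by 0.46 (adjusted p = 0.00343), from 6.81 ± 0.13 to 6.35 ± 0.18, and by 0.70 on a second probe set of like brightness. FANCE, FANCF and FANCB are parts of the same core complex and moved in opposite directions.

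FANCL, the ubiquitin ligase of the core complex, did not pass: its arrays read 8.38, 8.44 and 8.45 with DMSO and 8.54, 8.49 and 8.65 with MI-389. The groups did not overlap but lay close together, and the change of 0.14 had an interval of 0.0017 to 0.27 and an adjusted p of 0.116. With a further quantile normalisation FANCL passed as higher. FANCC, another core subunit, changed by 0.03 (adjusted p = 0.706).

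Mismatch repair had 3 genes that rose, 0 that fell and 2 that did not pass at an adjusted p under 0.05, with a median change of 0.25, and 1 higher and 2 lower with spike-in centring. EXO1, the exonuclease that removes the strand with the error and also trims broken ends, read 6.81, 6.91 and 6.88 with DMSO and 7.59, 7.64 and 7.47 with MI-389. It rose by 0.70 (SE 0.06, adjusted p = 1.38e-05), or 1.62-fold, with the groups far apart. MSH6, a subunit of the complex that finds single mismatches, rose by 0.25 from 9.42 ± 0.03 to 9.67 ± 0.03, with both of its probe sets called. PMS1, a homolog of the strand-cutting subunit PMS2, rose by 0.31, with 4 of 7 probe sets called.

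MSH3, which takes the place of MSH6 in the complex that finds small loops, read 7.16, 7.21 and 7.16 with DMSO and 6.96, 7.17 and 6.95 with MI-389. One treated array lay among the controls, and the change of -0.15 had an interval of -0.31 to 0.0014 (adjusted p = 0.124). Without that array, MI-389 replicate 2, MSH3 passed as lower (-0.22, adjusted p = 0.0196). Its promoter window shown above holds E2F letters, as those of EXO1 and MSH6 do. PMS2 was measured alone by 1 probe set at 3.43 and 3.38, in the range of the nonspecific controls, so its level is uncertain. Of 2 further probe sets that read it together with its near copy PMS2CL, one was above background, at 6.10 with DMSO and 5.90 with MI-389 (change -0.20, probe set adjusted p = 0.127), and the other was under it.

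In end joining 1 of 5 genes rose and 1 fell, with a median change of 0.0080, and 0 were higher and 4 lower with spike-in centring (median -0.24). As deposited this is 20% each way, beside 18.4% higher and 15.7% lower among all genes. Among genes with a group mean at or above background the shares were 30.7% and 27.7%. PRKDC, the catalytic subunit of the DNA-dependent kinase, read 9.90, 9.92 and 9.80 with DMSO and 10.26, 10.31 and 10.32 with MI-389. It rose by 0.42 (SE 0.06, adjusted p = 2.2e-04), or 1.34-fold, on 3 of its 4 probe sets, and the fourth was under background.

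XRCC6 and XRCC5, the pair of Ku proteins that hold broken ends and recruit that kinase, were the brightest members. XRCC6 read 10.43, 10.41 and 10.41 with DMSO and 10.53, 10.52 and 10.42 with MI-389. Its groups overlapped, with a change of 0.07 and an interval of -0.05 to 0.20. A probe set it shares with a pseudogene changed by 0.03. XRCC5 measured 10.2 ± 0.09 under either treatment, for a change of 0.0080 and an interval of -0.15 to 0.16. XRCC4, the scaffold of the ligation step, changed by -0.05 (interval -0.23 to 0.13).

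LIG4, the ligase that seals the joined ends, fell by 0.28 (SE 0.08, adjusted p = 0.0247). Its controls read 7.18, 6.92 and 6.84 and its treated arrays 6.67, 6.71 and 6.71, with DMSO replicate 1 the highest. Without DMSO replicate 1, MI-389 replicate 1, MI-389 replicate 2 or MI-389 replicate 3 it no longer passed (adjusted p = 0.0627, 0.0664, 0.0546 and 0.053), which leaves 1 called gene in the class. The change was -0.18 without DMSO replicate 1 and -0.29 to -0.27 without any of the MI-389 arrays.

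In the checkpoint class 5 of 10 genes rose and 2 fell, with a median change of 0.18, against 1 higher and 4 lower with spike-in centring. TOPBP1, the protein that activates ATR at stalled forks, read 9.10, 9.09 and 9.03 with DMSO and 9.71, 9.76 and 9.72 with MI-389. The spread within groups was small beside the distance, and it rose by 0.66 (SE 0.05, adjusted p = 5.69e-06), or 1.58-fold, on both of its probe sets.

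ATM, the kinase that answers double-strand breaks, rose by 0.45 from 8.41 ± 0.06 to 8.86 ± 0.14, with 4 of 5 probe sets called higher, and its target kinase CHEK2 rose by 0.32. ATR, the kinase of stalled replication, read 6.16, 6.13 and 6.04 with DMSO and 5.92, 5.97 and 6.03 with MI-389. These groups all but touch, and its change of -0.14 (interval -0.27 to -0.0022) did not pass (adjusted p = 0.115). Its partner ATRIP changed by 0.15 (adjusted p = 0.110), and passed as higher without MI-389 replicate 3 (0.20, adjusted p = 0.044). Whether ATM and ATR differ in their response was not tested.

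CHEK1, the kinase that acts below ATR, had probe sets called in both directions. The brightest read 7.49, 7.45 and 7.47 with DMSO and 7.28, 7.28 and 7.17 with MI-389, a fall of 0.23 (SE 0.06, adjusted p = 0.0103). Of the other 5, 2 were called higher, at 0.27 and 0.26, and 3 were not called. The mean of all 6 probe sets changed by 0.094 (adjusted p = 0.136), so that no direction for CHEK1 holds across its probe sets.

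The ring of RAD9A, RAD1 and HUS1, which marks damaged DNA for ATR, and its loader RAD17 did not move as a unit. RAD1 rose by 0.36, with 3 of 6 probe sets called, but did not pass with unspecific probe sets ranked last (0.16, adjusted p = 0.248). RAD9A rose by 0.21, a call lost without DMSO replicate 1 or DMSO replicate 2 (adjusted p = 0.0519 and 0.0665). HUS1 changed by -0.24 with overlapping groups (adjusted p = 0.0853), and passed as lower without DMSO replicate 3 or MI-389 replicate 3. RAD17 read 9.11, 9.20 and 9.11 with DMSO and 8.64, 8.79 and 8.63 with MI-389, and fell by 0.45 (SE 0.06, adjusted p = 2.97e-04). Its 3 probe sets gave nearly the same value, from -0.46 to -0.44.

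UNG, the glycosylase that removes uracil from DNA, had the largest rise of the 43 genes in the values as deposited. It read 7.51, 7.38 and 7.36 with DMSO and 8.24, 8.30 and 8.21 with MI-389. The change of 0.83 (SE 0.06, adjusted p = 2.99e-06), or 1.78-fold, was larger than that of 97.1% of all genes, and a second probe set gave 0.79. PARP1, which senses strand breaks and marks them with poly(ADP-ribose), rose by 0.41 from 8.81 ± 0.05 to 9.22 ± 0.05. All 4 of its probe sets were called higher, over a range from 0.33 to 0.87. With the spike-in centring UNG passed and PARP1 did not (0.15, adjusted p = 0.0975).

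**Figure D3:**
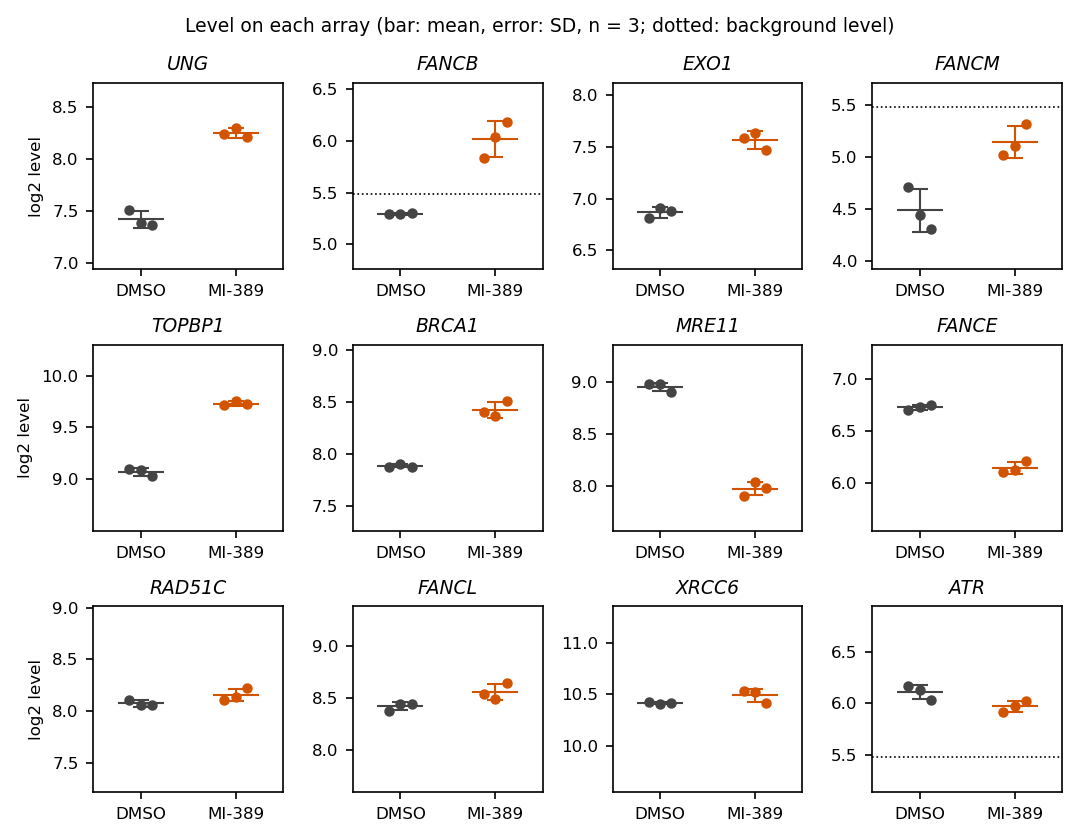
Log2 level on each array for 8 genes changed by at least 0.5 and for RAD51C, FANCL, XRCC6 and ATR, each the brightest of its class that did not pass. DMSO is in grey and MI-389 in orange, with the mean as a bar, the SD as error (n = 3) and the background level of 5.49 dotted where it falls in the panel. All panels span the same height in log2 units, and in the first 8 the groups lie apart, as for UNG (7.36 to 7.51 against 8.21 to 8.30), while in the last 4 they overlap or lie close together.

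Single probe sets were also tested, since 29 of the 43 genes had more than 1. At this level 62 of 115 probe sets were called, 46 higher and 16 lower, where 28.0% of all probe sets were called, 14.0% in each direction. With spike-in centring 14 of the 115 were higher and 46 lower. The 78 probe sets above background held 40 called higher and 13 called lower, and 9 of the 37 dim ones were called. The 28.0% includes dim probe sets, and the shares of all probe sets above and under background were not counted, nor were those with spike-in centring. Among genes with a group mean at or above background, 58.4% were called. Of 15 genes that rose and had several probe sets, 12 had at least 2 called higher. Of 7 such genes that fell, 5 had at least 2 called lower. The brightest probe set, from which the call of the gene came, is not left out of these counts. The same counts were not made over all genes. RAD50 and CHEK1 had calls in both directions, and no other member did. Probe sets of a gene share its RNA and are not replicates, and where in each transcript they lie was not examined.

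**Figure D4:**
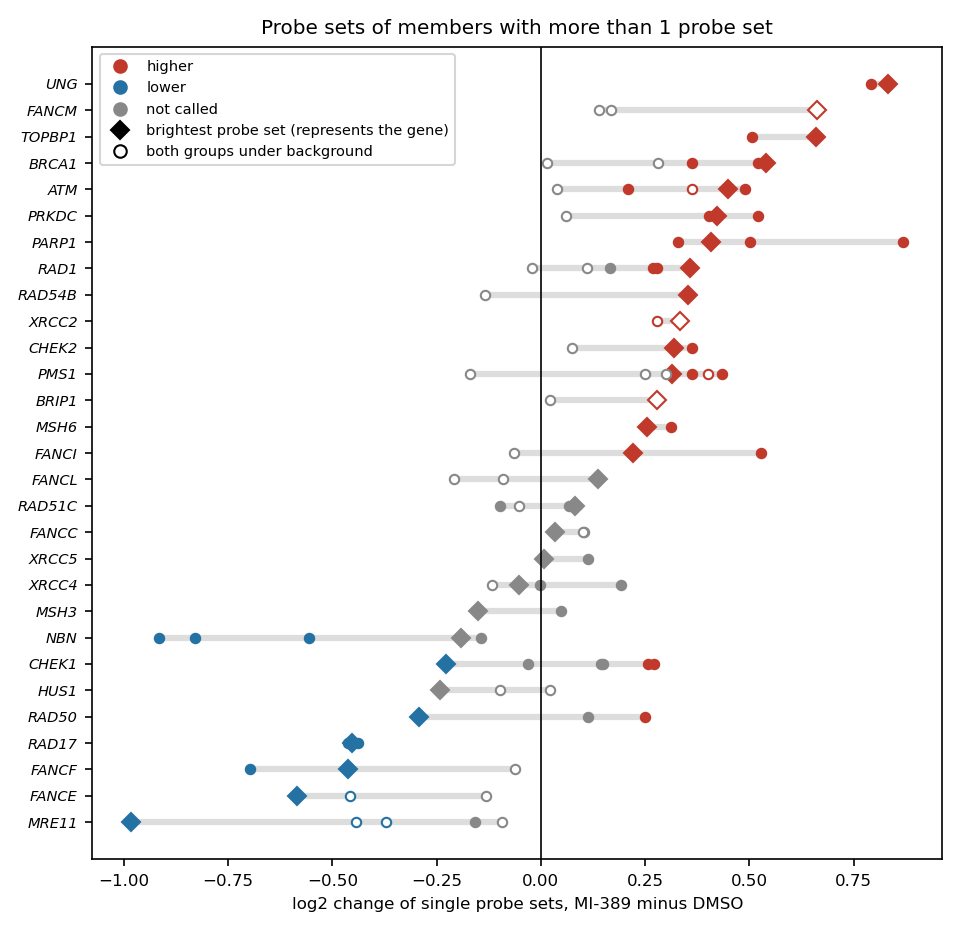
Log2 change of every probe set, MI-389 minus DMSO, for the 29 genes with more than 1, with a diamond for the brightest probe set, which represents the gene, and open symbols for probe sets under background in both groups. The probe sets of UNG, RAD17 and MSH6 sit close together, those of RAD50 and CHEK1 lie on both sides of 0 with calls in both directions, and those of NBN run from -0.92 to -0.14; with spike-in centring every symbol moves left by 0.25.

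Of the 59 other repair and checkpoint genes measured, 27 rose and 11 fell, with a median of 0.14, and 7 were higher and 23 lower with spike-in centring. Among other genes of double-strand breaks and crosslinks 12 of 22 rose and 4 fell (3 and 7 with spike-in centring). SLX4, a scaffold of nucleases, rose by 0.54, the polymerase POLQ of alternative end joining by 0.48 and the ubiquitin ligase RNF8 by 0.47. NHEJ1, a partner of XRCC4 and LIG4, fell to a treated mean under background and was at least 1.55-fold lower (adjusted p = 2.87e-05). The nuclease FAN1 fell by 0.65 and the nuclease MUS81 by 0.52. Of the other checkpoint genes 7 of 10 rose and 1 fell (1 and 2 with spike-in centring), among them TIMELESS (0.63), CDC25B (0.40) and WEE1 (0.38), and MDM2, which degrades p53, fell by 0.28. Several of these calls rest on the choice of probe set. With unspecific probe sets ranked last TIMELESS changed by -0.0084 and FAN1 by -0.024 (adjusted p = 0.955 and 0.856), and with all probe sets averaged MDM2 changed by 0.025 (adjusted p = 0.726).

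Base excision was even, with 4 of 15 genes higher and 4 lower, and 3 and 8 with spike-in centring. As deposited, the shares of all genes were 18.4% higher and 15.7% lower. They were 30.7% and 27.7% of genes with a group mean at or above background. The glycosylase NEIL3 rose by 0.94, MBD4 by 0.64 and PARP2, a relative of PARP1, by 0.53, while XRCC1, the scaffold of single-strand break repair, fell by 0.54, the glycosylase MPG by 0.37 and TDG by 0.31. XRCC1 did not pass with unspecific probe sets ranked last (-0.083, adjusted p = 0.465), nor TDG with all probe sets averaged (-0.13, adjusted p = 0.0888). In nucleotide excision 4 of 12 genes rose and 2 fell (0 and 6 with spike-in centring), with DDB2 (0.42), ERCC4 (0.38) and DDB1 (0.25) the highest, and XPA (-0.37) and ERCC1 (-0.33), the partner of ERCC4, fell. With unspecific probe sets ranked last ERCC4 changed by 0.13 (adjusted p = 0.125) and DDB1 by 0.22 (adjusted p = 0.198), and neither passed.

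Genes of the cell cycle also changed. Of 15 S phase genes 10 rose and 1 fell (median 0.31; 4 and 4 with spike-in centring), with CCNE2 (0.77), MCM4 (0.75) and GINS2 (0.66) the highest and PRIM1 (-0.63) the gene that fell. Of 15 mitotic genes 12 rose and 1 fell (median 0.40; 7 and 3 with spike-in centring), with KIF20A at 1.08, TOP2A at 0.92 and KIF11 at 0.81, and PLK1 at -0.30. Of 12 E2F and related factors 9 rose and 1 fell (4 and 3 with spike-in centring), with E2F8 (0.74), E2F2 (0.57) and FOXM1 (0.56) the highest and LIN54 (-0.47) the gene that fell; E2F2 stood at -0.078 when unspecific probe sets were ranked last. The part of the cell cycle in the changes of the repair genes was not tested.

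Of the 9 measured genes listed for myeloid cells, PTPRC stood at 8.89, FLT3 at 11.0 and LYZ at 11.1 with DMSO. SPI1, CD14 and MPO were under background in both groups, as were all 6 T cell, all 5 red cell and platelet, 3 of 4 B cell markers and 5 of 7 epithelial and stromal markers measured. The exceptions were PAX5 among the B cell genes, and PECAM1 and KRT18. The summed level of the 9 genes listed for myeloid cells was 12.3 on each DMSO array and 13.44 to 13.47 with MI-389. Of these genes 7 were higher and 2 lower (5 and 2 with spike-in centring). The part of this rise in the changes of the repair genes was not tested. Correlations over all probe sets were 0.997 to 0.998 within the groups and 0.979 to 0.981 between them.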

How the data were processed

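RNA of 3 DMSO and 3 MI-389 samples was measured on Affymetrix arrays. The log2 values, 1 per probe set and array, were used as the authors deposited them. The submitters' processing notes name RMA and limma, without versions or settings. Array medians ran from 4.47 to 4.49. RMA compresses the differences of dim probe sets, and precision is limited by the 6 arrays.

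Gene names came from the platform annotation, updated through Entrez IDs in RefSeq (GRCh38.p14). Of 49293 probe sets without controls, 45253 named 1 gene. Each of 18239 genes was represented by its probe set of highest mean. limma 3.58.1 in R 4.3.3 (lmFit, eBayes, two-sided, no covariates, Benjamini-Hochberg over all genes) compared the groups at 0.05. The script was tested on simulated data. Promoter stretches run past the gene's start by up to 30 bases where a match lies there, although only upstream bases had been planned. The members and lists were chosen with earlier results of these data known.

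All members are accounted for. Array values are given for members changed by at least 0.5, for those with probe sets called in both directions and for the brightest that did not pass in each class; those of NBN, LIG4, PRKDC and RAD17 were chosen after their values were seen. Of other lists, up to 3 genes each way are named. Alternatives covered scaling, dim genes, variance, array weights, single arrays left out, choice of probe set, thresholds and the replicate number as a block.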

Additional observations from a re-analysis of the deposited data

How the results depend on the processing

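BRCA1, FANCB, FANCM, EXO1, TOPBP1, UNG, MRE11 and FANCE kept their direction and call in every one of the 18 alternatives run, and the other 22 called members lost the call in at least 1. Against a fold of 1.2 (limma treat), 8 of the 43 members passed, with 2 in homologous recombination, 3 Fanconi, 1 mismatch repair, 0 end joining (2 by the usual limma test), 1 checkpoint and 1 of PARP1 and UNG; 11 other repair genes, 2457 of all genes and 19 member probe sets passed. At an adjusted p under 0.01, 22 members passed, among them 6 recombination genes and 1 end joining gene, beside 4671 of all genes. With spike-in centring the counts were 5, 4 and 1 for recombination, end joining and the pair of PARP1 and UNG, and 12453 for all genes; RAD54L changed by -0.012, XRCC3 by -0.25, FANCC by -0.22, FANCI by -0.032, XRCC5 by -0.24, XRCC6 by -0.18 and RAD9A by -0.042, each from a positive change, because the centring subtracts 0.25 from every gene. Averaging all probe sets, or only those above background (an alternative added after the data were seen), gave 0.023 for RAD50 and 0.094 for CHEK1, and MDM2 stood at 0.025 with all averaged. TIMELESS stood at -0.0084 and E2F2 at -0.078 with unspecific probe sets ranked last; the cause was not tested. With single arrays left out, 25 to 30 members passed, and 1 to 2 in end joining, beside 5216 to 6160 of all 18239 genes. Same-numbered arrays did not deviate together (correlations -0.20, 0.018 and -0.14), so the numbers were not taken as pairs; with the replicate block 29 members and 5725 of all genes passed, and NBN was lost (adjusted p = 0.0559).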
